A study of Mus musculus with 2 samples.

Results

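The 66 genes described here encode heat shock proteins, their J-domain and BAG co-chaperones, subunits of the chaperonin TRiC and the heat shock factors HSF1 and HSF2. They were taken by gene symbol from a table of 10982 protein-coding genes, after 7 genes of the same symbol families that act mainly in other compartments or by other means had been left out by name, such as Hspa5 of the endoplasmic reticulum and Hspa9 of mitochondria. The choice used no expression value. The cells were labelled as mouse neonatal cardiomyocytes, the contractile cells of the newborn heart, and 1 sample was the negative control while the other was given an antagomir, an antisense oligonucleotide with stabilising chemistry, that targets the piRNA FERPIR (piRNAs are small RNAs bound by PIWI proteins). Both samples also carry the treatment label PBS. There were 2 libraries, 1 per group, and the sources used here name neither strain nor number of animals nor any pooling. With 1 library per group no difference below has a replicate check, no test was possible, and values describe these libraries only.

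Cytosolic chaperones hold unfolded proteins and help them reach their shape. HSP70 binds exposed stretches under ATP hydrolysis, J-domain (DNAJ) proteins bring it clients and speed that hydrolysis, and BAG and HSP110 proteins release the nucleotide so that the client can leave. HSP90 finishes kinases and steroid receptors, small heat shock proteins keep damaged proteins soluble without ATP, and TRiC folds actin and tubulin inside a double ring. HSF1 switches many of these genes on when proteins misfold in the cytosol, whereas misfolding inside the endoplasmic reticulum acts through the separate unfolded protein response. In heart muscle several small heat shock proteins and BAG3 are abundant and maintain the sarcomere.

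Values are in FPKM, fragments scaled by transcript length and by the mapped total of the library, so levels of different genes are compared per length. Where a pair of values is given, the control comes first. Read numbers are not known. Of 80 protein-coding symbols that fit the choice in the mouse annotation used here, 14 had no value in the table, which is not read as low expression. All values summed to 295404 FPKM (control) and 312806 FPKM (antagomir). Of 19 cardiomyocyte markers, 4 had values, summing to 13.6 FPKM (control) and 34.4 FPKM (antagomir), and Myh6, the main cardiac myosin gene, had none. Fibroblast markers (8 of 12 with values) summed to 1617 and 1164 FPKM and smooth muscle and pericyte markers (5 of 7) to 1332 and 892 FPKM. Acta2 made up most of the latter (1305 and 845 FPKM), while Tagln (18.2 and 37.8 FPKM) and Cnn1 (1.79 and 2.91 FPKM) on the same list were higher in the antagomir library, and the list had a median log2 ratio of -0.09. Of the 8 fibroblast markers 6 were lower, among them Fn1 (414 and 92.8 FPKM) and Col3a1 (358 and 249 FPKM). The other 2, Vim (655 and 730 FPKM) and Pdgfra (1.19 and 1.66 FPKM), were higher. Macrophage and other immune markers (2 of 8) summed to 16.9 and 22.0 FPKM, erythroid markers (2 of 6) to 14.4 and 20.8 FPKM, and none of 8 endothelial markers had a value. The 4 cardiomyocyte markers with values were thus low beside the fibroblast and smooth muscle sums. The 15 without a value, Myh6 among them, are not read as low expression, so the share of the labelled cell type is not known. In bulk RNA, fewer cells of a type and less RNA per cell cannot be told apart.

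Taken as a group, the heat shock and chaperonin genes lay close to equality between the libraries. Their FPKM summed to 3738 (control) and 3757 (antagomir), which was 1.27% and 1.20% of all FPKM. Of the 66 genes, 65 reached 1 FPKM in the higher library. Dnajc28, with 0.301 and 0.615 FPKM in the control and antagomir library, did not. The log2 ratio, log2 of (antagomir FPKM + 1) over (control FPKM + 1), had a median of -0.00 over the 65 genes and of -0.05 over all 10201 genes that reached 1 FPKM. Its SD across genes was 0.39 for the members and 0.55 for all genes. Of the members 32 lay above 0 and 33 below, beside 4695 and 5506 of all genes. At least 1.5-fold higher in the antagomir library on this scale were 4 members, Hspb2, Dnajc22, Dnajc9 and Dnaja1, or 6.15%, beside 10.8% of all genes. At least 1.5-fold lower were 5 members, Hspb6, Dnajb12, Hsf2, Bag6 and Dnaja3, or 7.69%, beside 13.4% of all genes. Both shares lay below those of the whole table, a difference that was not tested. Centring the ratios on the median of all genes turned these counts to 5 higher and 4 lower, and removal of a trend over transcript length and GC content turned them to 2 higher and 7 lower.

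At 2-fold there was 1 member on either side, Hspb2 and Hspb6, beside 2.88% of all genes higher and 3.79% lower. Among abundant genes, all 15 members with a mean of at least 50 FPKM stayed within 1.5-fold, with log2 ratios from -0.17 to 0.37, against 721 of 1094 genes of that level in the whole table, or 65.9%.

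**Figure D1:**
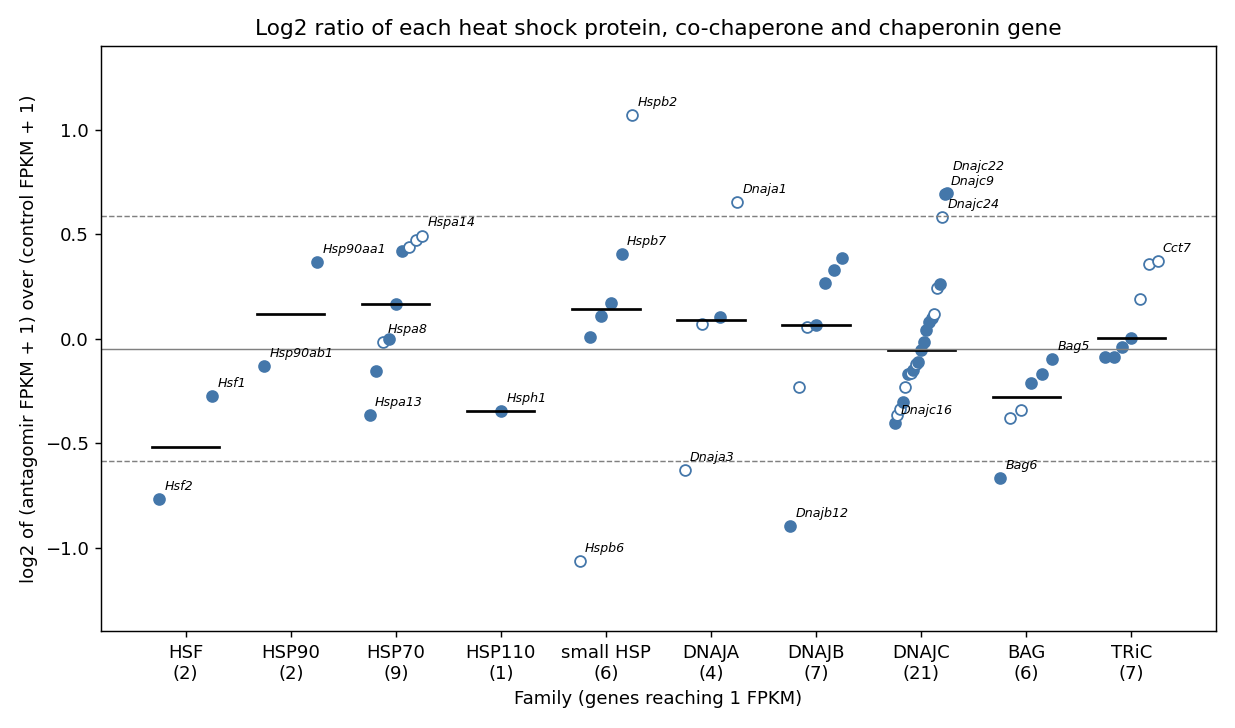
Each point is the log2 of (antagomir FPKM + 1) over (control FPKM + 1) of 1 gene, grouped by family on the horizontal axis, for the 65 genes that reached 1 FPKM. Open points are genes whose exons overlap another gene, black bars are family medians, dashed lines mark 1.5-fold and the grey line is the median of all genes, -0.05. The 6 BAG genes lie below 0, and Hspb2 and Hspb6 lie farthest apart.

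Both heat shock factor genes were lower in the antagomir library. Hsf1, the main inducer of the cytosolic heat shock response, had 6.18 FPKM (control) and 4.93 FPKM (antagomir), a log2 ratio of -0.28. Hsf2, a related factor that can form mixed trimers with HSF1, had 10.8 and 5.94 FPKM, a log2 ratio of -0.77 or 1.70-fold lower. Hsf2 lies on chromosome 10 from 57486385 to 57513135 in build GRCm38 and shares no exon with another annotated gene. The ratio of Hsf2 to Hsf1 was 1.75 (control) and 1.20 (antagomir), so Hsf2 was the more abundant in both.

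The inducible HSP70 genes, textbook targets of HSF1, were low in both libraries. Hspa1b had 2.66 FPKM (control) and 3.89 FPKM (antagomir), and Hspa1a had 0.572 and 1.13 FPKM, with log2 ratios of 0.42 and 0.44. Together they reached 3.23 and 5.02 FPKM, whereas the constitutive Hspa8 had 197 and 195 FPKM, 61.2 times and 38.9 times their sum. The antagomir value was the higher for both inducible genes, each by less than 1.5-fold with 1 FPKM added, although at these levels the fold depends on that addition: with 0.1 FPKM added Hspa1a passed 1.5-fold and Hspa1b did not.

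Hspa1a and Hspa1b are near-identical copies, side by side on chromosome 17, so reads can be assigned to either and their split is uncertain. Of 50-base windows of the Hspa1b transcript, 62.3% occur unchanged in that of Hspa1a. Their promoters show the same likeness. The stretches below run from 150 bases before to 30 bases after the transcription start (RefSeq, GRCm38.p6, minus strand, chr17:34972127-34972306 for Hspa1a and chr17:34959209-34959388 for Hspa1b). They are equal at 178 of 180 bases, and capitals mark a pair of heat shock element units, the GAA and TTC blocks that HSF trimers bind, 104 to 97 bases before the start.
Hspa1a: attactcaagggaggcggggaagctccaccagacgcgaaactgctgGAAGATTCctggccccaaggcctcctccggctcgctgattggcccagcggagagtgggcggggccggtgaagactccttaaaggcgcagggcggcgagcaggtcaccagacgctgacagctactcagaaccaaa
Hspa1b: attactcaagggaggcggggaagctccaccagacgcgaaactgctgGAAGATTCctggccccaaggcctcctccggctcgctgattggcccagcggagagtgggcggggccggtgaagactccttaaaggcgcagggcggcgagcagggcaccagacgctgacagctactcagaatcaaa

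A complete heat shock element, searched as GAANNTTCNNGAA and its reverse complement TTCNNGAANNTTC, was found in the promoter windows of 2 members, Hsph1 and Dnajb6. These were 3.85% of the 52 members with a window, which spans 300 bases around a transcription start, beside 0.662% of 27025 genes in the RefSeq table. Of the 8537 genes with both an FPKM value and a window, 0.539% held it. Hsph1 and Dnajb6 were both lower in the antagomir library, by less than 1.5-fold. Hsph1, an HSP110 nucleotide exchange factor of HSP70, had 17.6 FPKM (control) and 13.6 FPKM (antagomir), a log2 ratio of -0.34. Dnajb6, a J-domain protein that restrains aggregation, had 31.5 and 26.6 FPKM, a log2 ratio of -0.23. Their stretches, shown for the element in capitals, come from GRCm38.p6 at chr5:149636286-149636465 on the minus strand (Hsph1, element 15 to 27 bases after the start) and chr5:29735748-29735927 on the plus strand (Dnajb6, element 46 to 34 bases before the start). Each gene has 2 annotated starts in the table, and the stretch belongs to 1 of them.
Hsph1: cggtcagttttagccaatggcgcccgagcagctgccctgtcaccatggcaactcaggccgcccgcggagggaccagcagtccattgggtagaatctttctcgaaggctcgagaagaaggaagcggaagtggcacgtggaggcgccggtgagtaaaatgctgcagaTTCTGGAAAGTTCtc
Dnajb6: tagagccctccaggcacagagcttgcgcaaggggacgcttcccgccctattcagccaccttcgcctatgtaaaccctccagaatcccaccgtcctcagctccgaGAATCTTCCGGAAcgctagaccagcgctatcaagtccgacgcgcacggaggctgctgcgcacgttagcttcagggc

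The shorter word of 2 units, GAANNTTC or TTCNNGAA, each its own reverse complement and contained in every complete element, was present in 15 of the 52 members, 28.8%. It was present in 17.0% of all genes of the RefSeq table and in 13.7% of the 8537 genes with both an FPKM value and a window. Besides Hspa1a, Hspa1b, Hsph1 and Dnajb6 these were Bag3, Cct2, Cct5, Dnaja1, Dnaja4, Dnajb4, Dnajc10, Dnajc27, Hspb1, Hspb6 and Hspb8. Their log2 ratios ran from -1.06 for Hspb6 to 0.65 for Dnaja1 with a median of 0.07, 9 above and 6 below 0. The 36 members with a window but without this word that reached 1 FPKM had a median of 0.05. Members with and without the word thus lay at like values, untested, and a match describes letters only. Without a window in the table were Bag4, Cct4, Dnajc11, Dnajc18, Dnajc2, Dnajc22, Dnajc30, Dnajc5, Hsf1, Hsp90aa1, Hsp90ab1, Hspa13, Hspa8 and Hspb2.

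Hsp90ab1, the constitutive cytosolic HSP90, had the highest level of any single member, with 704 FPKM (control) and 643 FPKM (antagomir), a log2 ratio of -0.13, and ranked 39 and 58 among all genes. Hsp90aa1, the stress-inducible form, had 188 and 242 FPKM, a log2 ratio of 0.37. The forms differed in opposite directions, each within 1.5-fold, so their sum was nearly equal at 891 and 885 FPKM. The share of Hsp90aa1 in that sum was 21.05% (control) and 27.4% (antagomir).

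All 9 HSP70 family genes stayed within 1.5-fold, beside 75.8% of all genes. Hspa8 had a log2 ratio of -0.02. Hspa4, an exchange factor of the HSP110 kind despite its symbol, had 73.5 FPKM in both libraries, and its relative Hspa4l had 7.63 and 6.76 FPKM. Hspa14, which works at the ribosome with the J-domain protein DNAJC2, had 16.3 and 23.4 FPKM, a log2 ratio of 0.49, the highest of the family. Dnajc2 itself had 18.6 and 18.3 FPKM, so these partners were not shifted alike. The distant relative Hspa12a had 3.48 and 5.21 FPKM, a log2 ratio of 0.47, which was 0.64 and past 1.5-fold after removal of the length and GC trend. Hspa13, associated with the endoplasmic reticulum, had 9.95 and 7.48 FPKM, a log2 ratio of -0.37, the lowest of the family, and Hspa2, best known from sperm formation, had 2.02 and 2.39 FPKM.

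**Figure D2:**
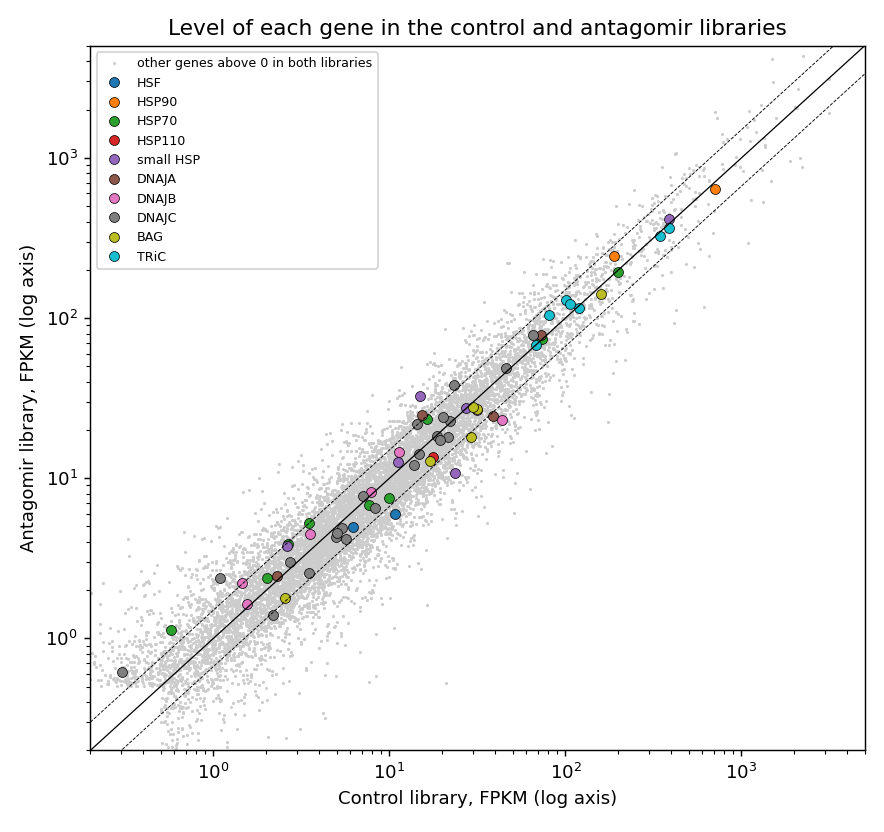
Each point is 1 gene, with its FPKM in the control library on the horizontal and in the antagomir library on the vertical axis, both logarithmic; grey points are other genes and colours mark the families. The solid line is equality and the dashed lines 1.5-fold without a pseudocount, and genes under 0.2 FPKM in either library lie outside the axes. Hsp90ab1, with 704 and 643 FPKM, is the highest member.

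The small heat shock proteins held the members farthest from equality. Hspb1 (HSP25 in mouse), which binds unfolded proteins and actin filaments, was the most abundant with 386 FPKM (control) and 417 FPKM (antagomir). Its log2 ratio was 0.11, but -0.52 with the length and GC trend removed (930 bases and 61.7% GC). Hspb8, which joins BAG3 in clearing misfolded proteins in muscle, had 27.4 and 27.5 FPKM. Of the members best known from muscle, Hspb2 had 14.9 and 32.5 FPKM, a log2 ratio of 1.07, whereas Hspb6, the heart and smooth muscle protein HSP20, had 23.6 and 10.8 FPKM, a log2 ratio of -1.06. Hspb7, abundant in heart muscle, had 2.63 and 3.80 FPKM, a log2 ratio of 0.40. These 3 genes did not differ in 1 direction. Markers of smooth muscle also differed in both directions, those of cardiomyocytes were higher in 3 of 4, and the part of these cells in the result was not tested. Hspb11, which despite its symbol is a subunit of the intraflagellar transport complex, had 11.1 and 12.7 FPKM.

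Hspb2 and Hspb6 both share exons with other genes, and strand use in the authors' counting is not stated. Hspb2, on chromosome 9 from 50751078 to 50752354, overlaps Cryab, the gene of another small heat shock protein, which had 60.9 FPKM (control) and 68.8 FPKM (antagomir). With the length and GC trend removed its log2 ratio was 0.40, below 1.5-fold. Hspb6, on chromosome 7 from 30552178 to 30555443, overlaps Lin37 (9.25 and 10.2 FPKM) and Proser3 (1.20 and 0.801 FPKM). Its log2 ratio stayed between -1.19 and -1.02 in the 8 alternatives that could be computed. Those on the minimum cannot move it. The part of the overlapping genes in both values was not tested.

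Among the J-domain genes of type A, the closest relatives of bacterial DnaJ, Dnaja2 was the most abundant with 72.7 FPKM (control) and 78.2 FPKM (antagomir). Dnaja1, a partner of HSC70 in folding and import, had 15.4 and 24.8 FPKM, 1.57-fold higher, and overlaps Smu1, which had 37.6 and 51.3 FPKM. Dnaja3 acts in mitochondria and had 38.6 and 24.6 FPKM, 1.55-fold lower. Its overlapping neighbours Coro7 and Vasn were also lower, with log2 ratios of -0.50 and -0.51, and centring on the median of all genes brought Dnaja3 to -0.58, just under the 1.5-fold limit. Dnaja4 had 2.30 and 2.46 FPKM. The type therefore held 1 gene past the limit on either side, both with shared exons.

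In type B, 6 of 7 genes stayed within 1.5-fold, beside 75.8% of all genes. Dnajb1, the stress-inducible HSP40 that pairs with HSP70, had 11.4 FPKM (control) and 14.5 FPKM (antagomir), a log2 ratio of 0.33, and its relatives Dnajb4 (3.56 and 4.49 FPKM) and Dnajb5 (1.46 and 2.21 FPKM) had log2 ratios of 0.27 and 0.38. The exception was Dnajb12, a J-domain protein of the endoplasmic reticulum membrane that hands membrane proteins to HSC70 for degradation. It had 43.7 and 23.1 FPKM, 1.86-fold lower, shares no exon with another gene, and lies on chromosome 10 from 59879556 to 59899302. It stayed at least 1.5-fold lower in all 9 alternatives, although those on the minimum and on overlapping members cannot move a single ratio. Dnajb14, its closest relative in the same membrane, had 1.55 and 1.65 FPKM, and Dnajb2 had 7.83 and 8.22 FPKM.

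Type C, whose members share little beyond the J domain, had 21 genes that reached 1 FPKM, with log2 ratios from -0.41 to 0.69 and a median of -0.06, 9 above and 12 below 0. The most abundant were Dnajc8, a splicing-associated protein, with 65.2 FPKM (control) and 78.2 FPKM (antagomir), and Dnajc10, a disulfide reductase of the endoplasmic reticulum, with 45.8 and 48.5 FPKM. Dnajc9, a co-chaperone of histones H3 and H4, had 23.1 and 37.9 FPKM, 1.61-fold higher. Dnajc22 had 1.08 and 2.37 FPKM, 1.62-fold higher at a low level. With the length and GC trend removed both came under 1.5-fold, with log2 ratios of 0.53 and 0.51. Just under the limit was Dnajc24, an enzyme cofactor of diphthamide synthesis on elongation factor EEF2, with 14.3 and 21.9 FPKM or 1.496-fold. Its log2 ratio of 0.58 fell to 0.24 with the trend removed, and it shares exons with Dcdc5.

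At the lower end of type C were Dnajc16 (2.18 and 1.401 FPKM), the endosomal protein gene Dnajc13 (5.65 and 4.16 FPKM) and Dnajc1 of the endoplasmic reticulum membrane (3.51 and 2.57 FPKM), with log2 ratios of -0.41, -0.36 and -0.34. Dnajc16 was at least 1.5-fold lower in 4 alternatives, both smaller pseudocounts and both rescalings, with log2 ratios from -0.63 to -0.60. Dnajc17 (21.4 and 18.1 FPKM) and Dnajc4 (19.4 and 17.4 FPKM), with transcripts of 1008 and 1074 bases, passed 1.5-fold lower once the trend was removed, at -0.69 and -0.61. Of genes with known sites of action, Dnajc5, the cysteine string protein of synaptic and secretory vesicles, had 14.8 and 14.2 FPKM, Dnajc7, which links HSP70 to HSP90, had 20.1 and 24.0 FPKM, and Dnajc21 of large ribosomal subunit assembly had 22.2 and 22.8 FPKM. Of the 21 type C genes 19 stayed within 1.5-fold, beside 75.8% of all genes. Type C genes not yet described, Dnajc11, Dnajc14, Dnajc15, Dnajc18, Dnajc25, Dnajc27 and Dnajc30, had log2 ratios from -0.30 for Dnajc15 to 0.12 for Dnajc14.

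The choice by symbol kept genes of other compartments, although the group is named for the cytosol. Lists drawn up for this description placed 8 in or on the endoplasmic reticulum and 5 in mitochondria, and may not be complete. The 8 had a median log2 ratio of -0.23, and among them Dnajb12 alone was past 1.5-fold. The 4 mitochondrial ones that reached 1 FPKM also had a median of -0.23, and Dnaja3 was past 1.5-fold. Without both sets the other 53 members had a median of 0.04, with 4 at least 1.5-fold higher and 3 lower.

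All 6 BAG genes were lower in the antagomir library, beside 5506 of all 10201 genes below 0. They were lower under each of the scaling, centring and trend alternatives as well, which rest on the same 2 libraries. Bag1, the most abundant, had 159 FPKM (control) and 141 FPKM (antagomir), a log2 ratio of -0.17. Bag6, which guides tail-anchored and mislocalised membrane proteins in the cytosol, had 29.2 and 18.0 FPKM, 1.59-fold lower, on chromosome 17 from 35135178 to 35147322 with no shared exon. Bag3, the partner of HSPB8 in selective autophagy, had 31.3 and 26.8 FPKM, and Bag5 had 29.8 and 27.7 FPKM, log2 ratios of -0.21 and -0.10. Bag2, an inhibitor of the ubiquitin ligase CHIP, had 17.0 and 12.8 FPKM, and Bag4 had 2.54 and 1.79 FPKM. Only Bag6 of the family was past 1.5-fold, the family median was -0.28, and the summed level was 268 FPKM (control) and 228 FPKM (antagomir).

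None of the 7 TRiC subunit genes with values differed by 1.5-fold, beside 75.8% of all genes that stayed within it. No Cct6 gene was among the 7, so sums, spread and ranks leave out that subunit. The 7 summed to 1209 FPKM (control) and 1230.3 FPKM (antagomir). Cct2 had 389 and 367 FPKM, Cct5 344 and 324 FPKM, Cct4 119 and 116 FPKM and Cct3 67.9 FPKM in both libraries, with log2 ratios from -0.09 to 0.00. Cct7 (80.9 and 105 FPKM), Cct8 (101 and 129.98 FPKM) and Tcp1 (107 and 122 FPKM) had ratios of 0.37, 0.36 and 0.19, and these 3 are the subunit genes whose exons overlap other genes. Tcp1 overlaps Mrpl18 (50.9 and 98.6 FPKM) and Acat3 (1.87 and 2.04 FPKM), and Cct7 overlaps Pradc1 (1.22 and 2.08 FPKM). Cct8 overlaps Usp16, which was lower in the antagomir library (4.77 and 3.11 FPKM). The part of the overlapping genes in these values was not tested. The direction of the family median was not stable, at 0.00 as deposited, -0.08 as TPM and 0.05 after centring.

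The TRiC ring takes up its subunits in equal numbers, yet the mRNA levels per length of the 7 genes were spread over 5.73-fold (control) and 5.40-fold (antagomir). Of these 7, Cct2 and Cct5 stood above the others in both libraries and Cct3 was the lowest in both. Cct8, Tcp1 and Cct4 changed places between the libraries. Of the chaperonin's clients, Tubb5 had 249 and 284 FPKM, Tuba1b 541 and 503 FPKM and Actg1 552 and 558 FPKM, while Actb had 689 and 339 FPKM, a log2 ratio of -1.02.

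**Figure D3:**
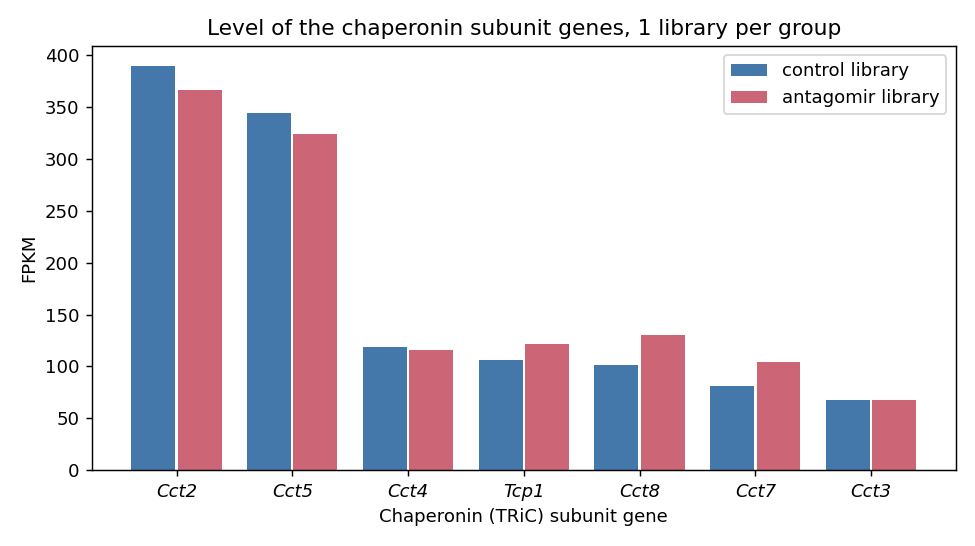
Bars give the FPKM of the 7 chaperonin subunit genes with values, without Cct6, in the control (blue) and antagomir (red) library. They start from 0 and are ordered by the control value, with 1 library per bar and no error. Cct2 and Cct5 lie at 324 FPKM or more in both libraries and the other 5 between 67.9 and 129.98 FPKM.

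Partners of these chaperones outside the symbol families were looked at in lists. Of 25 co-chaperones of HSP90 and HSP70, 24 reached 1 FPKM, with a median log2 ratio of 0.13, 1 at least 1.5-fold higher and none lower, beside 10.8% and 13.4% of all genes. That gene was Fkbp4, the immunophilin of steroid receptor complexes, with 104 FPKM (control) and 168 FPKM (antagomir). Next to it was Rpap3 (22.1 and 32.5 FPKM), and at the lower end were Sil1 (33.7 and 23.9 FPKM), an exchange factor of the endoplasmic reticulum, and Unc45a (7.01 and 4.84 FPKM), a myosin chaperone. As deposited 18 of the 24 lay above 0, and as TPM 13 did, while 4695 of all 10201 genes lay above 0 as deposited. Stip1, which joins HSP70 and HSP90, had 194 and 176 FPKM, and Stub1, the ligase CHIP, 150.2 and 156 FPKM.

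Prefoldin, which delivers actin and tubulin to TRiC, had 5 of 6 measured subunit genes above 0, from Pfdn2 (42.2 and 49.7 FPKM) to Pfdn4 (13.1 and 18.2 FPKM), with Vbp1 (26.3 and 24.6 FPKM) below. Their median of 0.37 was -0.00 with the length and GC trend removed, 3 above and 3 below. Uri1, a prefoldin-like protein, had 29.3 and 16.0 FPKM, a log2 ratio of -0.83. In the list of disaggregation and aggregate handling genes, 4 of 10 were at least 1.5-fold lower and none higher, beside 13.4% and 10.8% of all genes, among them Clpb (8.89 and 5.197 FPKM), a disaggregase of mitochondria. The autophagy receptor gene Sqstm1 had 434 and 279 FPKM, a log2 ratio of -0.63. Clpb and Sqstm1 thus lay lower than the HSP70 and HSP110 genes on the same list, Hspa4 and Hsph1, without a test of that difference.

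Of 18 further targets and partners of heat shock factors, 3 were at least 1.5-fold higher and 3 lower, or 16.7% each, beside 10.8% and 13.4% of all genes, with a median log2 ratio of 0.17. Mrpl18 (50.9 and 98.6 FPKM) and Fkbp4 were at the upper end, and Hmox1 (194 and 53.9 FPKM), which oxidative stress also induces, at the lower. The mitochondrial chaperonin genes Hspd1 (330.1 and 268 FPKM) and Hspe1 (162 and 254 FPKM) encode partners and face away from each other on chromosome 1. Their windows overlap and hold the same complete heat shock elements, and their log2 ratios were -0.30 and 0.65. With the length and GC trend removed these were -0.39 and 0.23, so Hspe1 came under 1.5-fold. The genes also share exons with each other.

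The relatives in the endoplasmic reticulum had different values from the cytosolic forms. Hsp90b1 had 540 FPKM (control) and 209 FPKM (antagomir), a log2 ratio of -1.36, beside 891 and 885 FPKM for the cytosolic HSP90 genes together. The cytosolic sum was therefore 1.65 times the level of Hsp90b1 (control) and 4.23 times (antagomir). Hspa5 had 483 and 218 FPKM beside 197 and 195 FPKM for Hspa8, a ratio of Hspa8 to Hspa5 of 0.409 and 0.895. The J-domain genes Dnajb9 (34.5 and 6.59 FPKM) and Dnajb11 (43.8 and 20.3 FPKM), which serve Hspa5, had log2 ratios of -2.23 and -1.07, beside 0.33 for Dnajb1. Among mitochondrial relatives, Trap1 (66.9 and 58.6 FPKM) and Hspa9 (322 and 258 FPKM) had log2 ratios of -0.19 and -0.32, while Grpel1 (42.4 and 45.9 FPKM), Hspe1 and Dnajc19 (11.4 and 22.8 FPKM) had 0.11, 0.65 and 0.95. Mitochondrial relatives thus lay on both sides of equality. Each compartment gap rests on 1 library per group and was not tested.

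**Figure D4:**
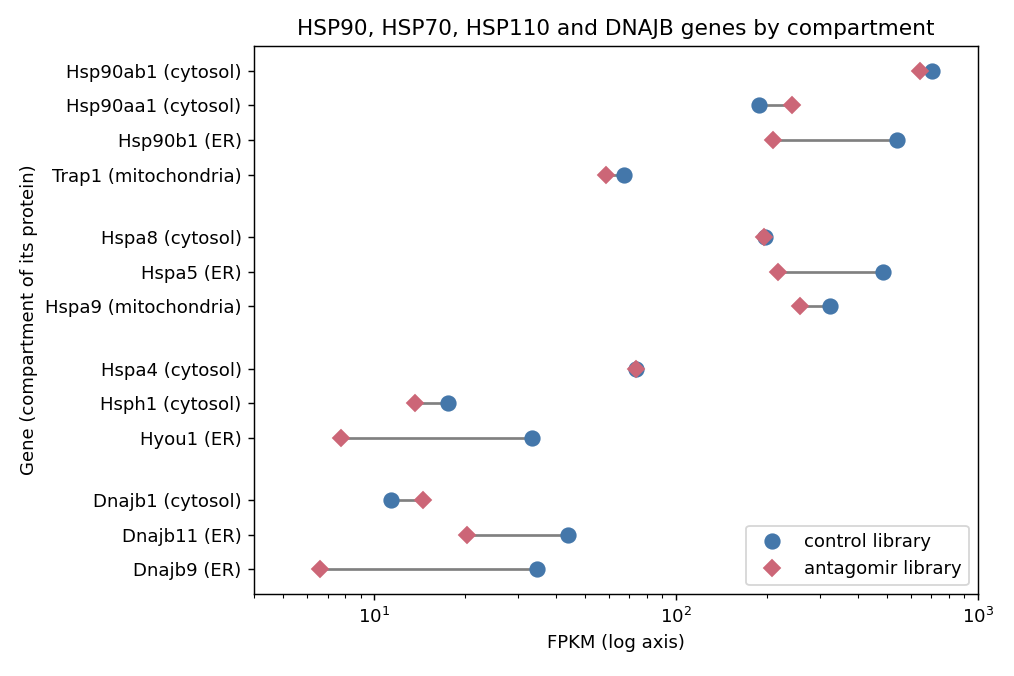
For each gene, named with the compartment of its protein, the circle is the FPKM in the control and the diamond that in the antagomir library, on a logarithmic axis, joined by a grey line. The cytosolic genes have short lines, such as Hspa8 with 197 and 195 FPKM, and the genes of the endoplasmic reticulum (ER) have long ones, such as Dnajb9 with 34.5 and 6.59 FPKM.

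The promoter windows were also searched for a word of the unfolded protein response, as a description. The endoplasmic reticulum stress element, searched as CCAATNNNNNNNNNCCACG and its reverse complement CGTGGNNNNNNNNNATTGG, was found in the windows of 3 of 11 organelle relatives, Hspa5, Hsp90b1 and Dnajc3. It was found in 0 of 52 members and in 0.137% of all 27025 genes of the table. The stretch of Hspa5, at chr2:34771940-34772119 on the plus strand of GRCm38.p6, is shown for that element, in capitals 65 to 47 bases before the start.
Hspa5: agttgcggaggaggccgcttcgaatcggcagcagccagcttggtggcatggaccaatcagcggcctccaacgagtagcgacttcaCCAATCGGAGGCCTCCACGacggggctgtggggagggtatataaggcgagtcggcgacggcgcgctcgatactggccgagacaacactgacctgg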

How the data were processed

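TRIzol-extracted RNA was enriched for poly(A) and made into libraries with a stranded kit, per the labels' protocols, which also list adaptor ligation at both RNA ends. The authors deposited gene-level FPKM for 10992 lines of protein-coding genes, made with cutadapt, HISAT2 and StringTie 1.3.3 on GRCm38, per the submitters' processing notes. For settings, annotation release and strand use, nothing is stated in those notes. In every line the higher value exceeds 0.5 FPKM. The 10 symbols on more than 1 line were summed, giving 10982 genes; each member had 1 line. No steps of whole reads were found in low values (18.3% and 18.0% within 0.05 of a whole number at the best step), so depth is unknown.

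Log2 ratios used a pseudocount of 1 FPKM, and those genes whose higher value was at least 1 FPKM entered the counts at 1.5-fold and 2-fold. Values were given for every member that reached 1.5-fold, the 2 most abundant of each family, all members of families of 8 or fewer, and up to 2 genes at either end of each list. Other genes named, among them Hspa4, Dnajc24 and Stip1, were chosen after their values were seen. Members and lists were chosen with earlier results of these data known. GENCODE M21 gave transcript lengths, GC content and exon overlaps, which were counted on either strand; 61 of 66 members have the same coordinates there. The length and GC trend was a running median over 501 genes. Promoters were taken from RefSeq tables. The software was Python 3.11.15, pandas 2.3.3, numpy 2.4.6 and matplotlib 3.10.9, and the calculations were tested on simulated data. Protein features were planned and not analysed here.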

Additional observations from a re-analysis of the deposited data

How the results depend on the processing

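The alternatives were pseudocounts of 0.1 and 0.01 FPKM, no minimum or one of 5 FPKM, rescaling to TPM or after dropping genes of ribosomal proteins, hemoglobins and the mitochondrial genome, centring on the median of all genes, removal of the length and GC trend, and leaving out members with overlapping exons. No scaling moved the median of all genes by more than 0.1. The 4 members at least 1.5-fold higher became 7 with a pseudocount of 0.01 FPKM, beside 14.5% of all genes. They became 2 with the trend removed, beside 7.91%. Without overlapping members 2 of the 4 and 3 of the 5 lower ones were left, by construction since fewer genes were counted. The median log2 ratio of the heat shock factor genes, -0.52, passed the 1.5-fold limit at -0.59 with either pseudocount, -0.65 as TPM and -0.63 with the other rescaling. All other family medians stayed within 1.5-fold. Of 547 single-gene values under alternatives 528 kept their side of that limit, 4 fell below it, 15 passed it and 0 turned direction while past it. A changed minimum and the leaving out of members cannot move a single-gene value, so part of the 528 kept their side by construction. The unknown depth limits the members of few FPKM most, such as Hspa1a and Dnajc22. No paired analysis was possible because there was 1 library per group, and for the same reason no replicate could be left out.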
